A study of Mus musculus with 6 samples.

Results

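The guanylate-binding proteins are a family of interferon-induced GTPases, and 10 of their genes (Gbp2, Gbp2b, Gbp3 to Gbp10) were followed here in the colon of mice with colitis. They were taken by symbol from a table of 54532 genes, in which each of the 10 had 1 row, and 10 of 10 had enough reads to be among the 16861 genes tested. Poly-A RNA of distal colon was sequenced from 3 libraries labelled knockout (KO 1 to KO 3, genotype Itgbl1 -/-) and 3 labelled wild-type (WT 1 to WT 3). Mice under both labels drank 3% dextran sulfate sodium (DSS), which damages the lining of the colon, for 7 days, so untreated colon is not part of the comparison. The title of the series names a protective role of ITGBL1 in the epithelium during colitis, and the comparison asked how the transcripts of this family differed between the labels. The labels give neither the strain, age and sex of the mice nor how the knockout allele was made. They number the replicates without saying whether each came from its own animal, so the p-values speak of the spread between libraries, some of which may be technical.

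Guanylate-binding proteins are large GTPases of the dynamin superfamily. Interferon gamma, made mainly by T cells, natural killer cells and innate lymphoid cells, binds its receptor and activates the kinases JAK1 and JAK2, and the signal induces the transcription factor IRF1, which drives the Gbp genes. The proteins gather on vacuoles that hold parasites or bacteria and on bacterial surfaces, where they act with the immunity-related GTPases and help to start inflammasomes, the caspase-activating complexes of infected cells. In the gut they are made by epithelium, macrophages, endothelium and other cells when interferon is present.

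The genes lie in 2 clusters. Gbp2, Gbp2b, Gbp3, Gbp5 and Gbp7 are on chromosome 3 within 142493978 to 142638008 of GRCm38, and Gbp4, Gbp6, Gbp8, Gbp9 and Gbp10 are on chromosome 5 within 105014150 to 105293698. RefSeq promoter windows for GRCm38.p6 were found for the 5 genes on chromosome 3, and the 250 bases before the transcription start are given because they hold a kind of element known to bind IRF factors. Each gene and window is on the plus strand, and capitals mark matches to the interferon-stimulated response element, searched as GAAANNGAAA on both strands.
Gbp2, chr3:142620413-142620662: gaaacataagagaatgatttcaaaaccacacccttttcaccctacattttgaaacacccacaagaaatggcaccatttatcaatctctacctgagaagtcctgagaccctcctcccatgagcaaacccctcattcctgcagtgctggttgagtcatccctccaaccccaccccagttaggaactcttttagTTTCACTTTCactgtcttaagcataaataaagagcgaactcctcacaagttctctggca
Gbp2b, chr3:142594597-142594846: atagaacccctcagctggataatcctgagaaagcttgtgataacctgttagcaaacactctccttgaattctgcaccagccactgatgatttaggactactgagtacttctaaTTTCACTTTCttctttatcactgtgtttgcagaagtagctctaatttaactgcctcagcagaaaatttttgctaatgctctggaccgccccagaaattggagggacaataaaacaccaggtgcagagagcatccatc
Gbp3, chr3:142559794-142560043: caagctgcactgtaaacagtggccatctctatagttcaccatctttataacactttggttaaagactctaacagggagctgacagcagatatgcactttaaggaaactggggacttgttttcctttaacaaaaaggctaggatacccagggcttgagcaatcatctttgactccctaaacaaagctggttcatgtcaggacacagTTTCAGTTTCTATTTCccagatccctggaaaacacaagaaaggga
Gbp5, chr3:142496684-142496933: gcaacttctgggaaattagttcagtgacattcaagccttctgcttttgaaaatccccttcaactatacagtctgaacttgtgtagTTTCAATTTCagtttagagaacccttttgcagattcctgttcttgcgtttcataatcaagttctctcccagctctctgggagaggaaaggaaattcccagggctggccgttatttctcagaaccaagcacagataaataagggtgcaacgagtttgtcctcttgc
Gbp7, chr3:142530086-142530335: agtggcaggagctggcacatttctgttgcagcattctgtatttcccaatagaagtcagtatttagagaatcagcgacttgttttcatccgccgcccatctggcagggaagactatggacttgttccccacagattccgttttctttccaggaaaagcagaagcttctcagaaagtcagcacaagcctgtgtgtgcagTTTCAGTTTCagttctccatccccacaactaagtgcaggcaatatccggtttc
In each of the 5 genes the match reads as the reverse complement, TTTCNNTTTC. It lies at -59 to -50 in Gbp2, at -53 to -44 in Gbp7, at -137 to -128 in Gbp2b and at -165 to -156 in Gbp5, counted from the start. Gbp3 has a pair of matches that overlap each other, at -45 to -36 and -39 to -30, while the window of its other annotated start holds none. Of 32851 mouse promoter windows of the same length, 2.98% hold this element. The gamma-activated site, searched as TTCNNNGAA, occurs in 7.02% of the windows and matched in Gbp5, at -245 to -237 and -52 to -44, and in Gbp7, at -106 to -98 and -87 to -79. These matches are descriptions of letters and say nothing of binding in these samples.

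Total gene counts were 13326970 to 17465473 in libraries labelled knockout and 16800399 to 18321389 in wild-type libraries. Itgbl1 did not bear out the knockout label: it had 12, 4 and 10 reads in KO 1, KO 2 and KO 3 against 19, 6 and 5 reads in WT 1, WT 2 and WT 3 (log2 ratio -0.19 ± 0.77 (SE), adjusted p = 0.9 by edgeR). Since the counts cover whole genes, reads from undeleted exons cannot be separated out, and every direction below is between the labels. The libraries labelled knockout also stood far apart from each other. Levels are given as CPM, counts scaled to library size by the trimmed mean of M-values (TMM), which assumes that most genes do not differ. The summed level of 8 epithelial markers was 961 CPM in KO 1, 6706 CPM in KO 2 and 47.1 CPM in KO 3, against 12928 to 15982 CPM in wild-type libraries. KO 3 also had 12.8% mitochondrial reads, against 3.53 to 4.88% in the other 5 libraries. In tissue RNA, fewer cells of a type and less RNA per cell cannot be told apart.

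The 10 genes together did not separate the labels. Summed over the family, the level was 323, 1324 and 665 CPM in KO 1, KO 2 and KO 3, against 1303, 559 and 1284 CPM in WT 1, WT 2 and WT 3. In this sum KO 2 was the highest of the 6 libraries, KO 1 the lowest, and WT 2 lay below KO 3. Gbp2 gave 36.3 to 58.5% of the summed reads, and gene by gene KO 2 was the highest library for 1 of 10. By edgeR's quasi-likelihood fit 0 of 10 genes passed an adjusted p of 0.05, against 0.0% of all genes tested, and by DESeq2 0 of 10, against 10.5%. At an unadjusted p under 0.05 there was 1 of 10 by edgeR, Gbp7, which was lower under the knockout label, against 24.1% of all genes (12.3% lower, 11.8% higher). Libraries of the labels did not overlap in Gbp7 alone among the 10, against 17.3% of all genes without overlap and lower and 15.0% without overlap and higher. With 10 genes, these counts are no result about the family.

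The counts depended on KO 2 and on the weighting of libraries. Without KO 2, 5 of 10 genes had an unadjusted p under 0.05, all lower, against 31.3% of all genes in either direction. Groups then did not overlap in 5 of 10, all lower, against 27.0% of all genes without overlap and lower. With limma-voom and quality weights, which give less weight to libraries that stand apart, 6 of 10 had such a p, all lower, against 28.3%. Limma-voom without weights gave 2 of 10 against 24.3%. Without KO 3 and WT 2 there were also 2 of 10, against 12.3% in either direction. There 5 of 10 were without overlap, all lower, against 24.0% of all genes without overlap and lower. Without WT 2 alone, 3 of 10 did not overlap, all lower, against 20.6% of all genes without overlap and lower. The log2 ratio of libraries labelled knockout over wild-type was below 0 in 8 of 10 genes, against 46.9% of all genes, with a median of -0.61 beside 0.06 over all genes. Upper-quartile scaling, which moved the median of all genes to 0.21, put Gbp9 at 0.00011, so that 7 of 10 were then below 0.

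**Figure D1:**
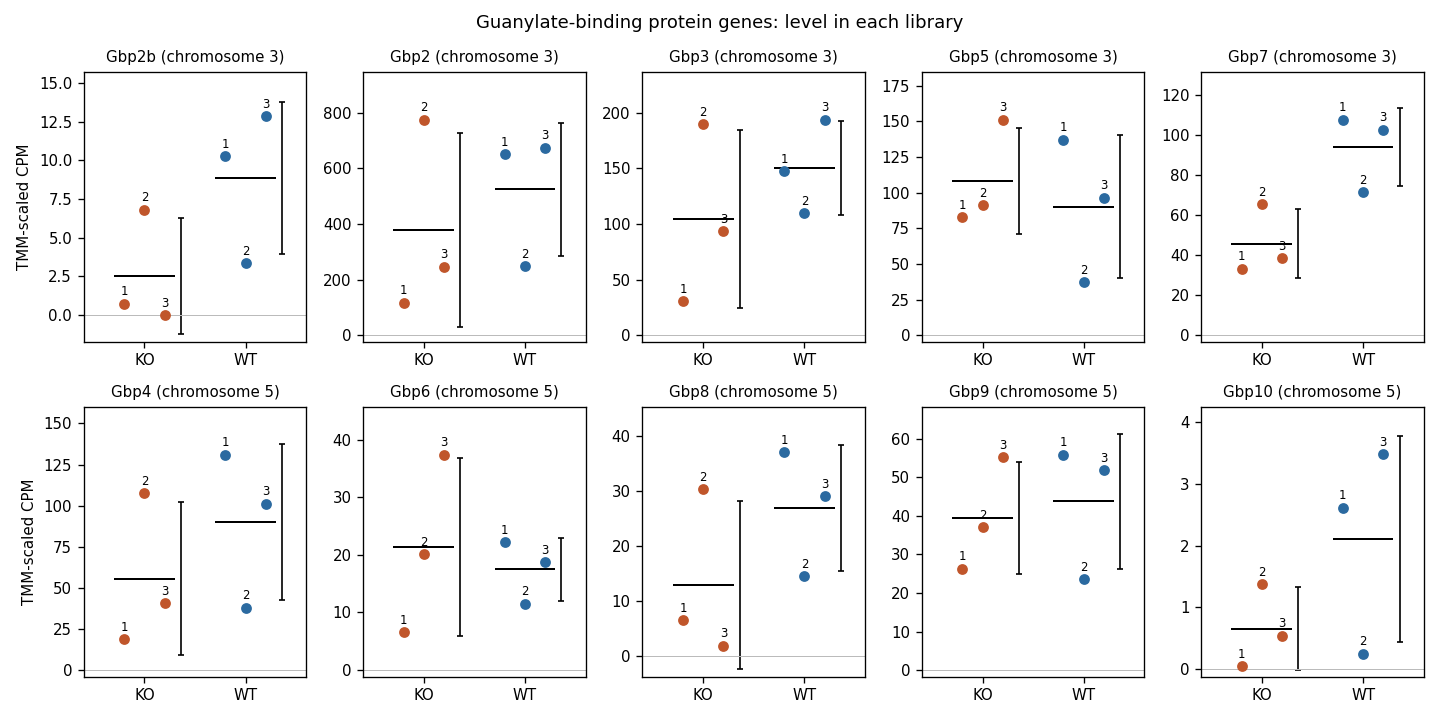
Level of each gene in TMM-scaled CPM (vertical axis, linear, a scale per gene) in the libraries labelled knockout (left, orange) and wild-type (right, blue), with the library number above each point, the mean as a horizontal line and the SD (n = 3) as a bar beside it. Gbp7 is the gene in which every library labelled knockout, at 33.3 to 65.7 CPM, lies below every wild-type library, at 71.6 to 108 CPM.

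Among the chromosome 3 genes, Gbp2 gave the most reads. Its protein carries a lipid anchor and in mice restricts Toxoplasma gondii and cytosolic bacteria. Gbp2 (142620602 to 142638008) was at 117, 774 and 247 CPM in KO 1, KO 2 and KO 3, against 652, 249 and 674 CPM in WT 1, WT 2 and WT 3. The highest value was in KO 2 and the lowest in KO 1, so the groups overlapped, and KO 3 and WT 2 were nearly level. The log2 ratio was -0.47 ± 0.73 (SE, adjusted p = 0.723 by edgeR), smaller than its error. With a library left out it ran from -1.57 without KO 2 to -0.02 without KO 1.

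Gbp3, whose product also reaches parasite vacuoles in mouse cells, again had KO 1 as its lowest library. The gene (142560026 to 142573209) was at 30.6, 189.6 and 93.5 CPM in KO 1, KO 2 and KO 3, against 147, 109.6 and 194 CPM in WT 1, WT 2 and WT 3. KO 2 fell among the upper wild-type values and the other libraries labelled knockout lay below all of them. The log2 ratio was -0.52 ± 0.61 (SE, adjusted p = 0.623 by edgeR), and ran from -1.31 without KO 2 to -0.07 without KO 1.

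Gbp7, which in mouse macrophages helps to assemble the phagocyte oxidase and to bring autophagy proteins to bacteria, had the smallest SE of the 10 ratios. The gene (142530342 to 142550149) was at 33.3, 65.7 and 38.5 CPM in KO 1, KO 2 and KO 3, against 108, 71.6 and 103 CPM in WT 1, WT 2 and WT 3. All 3 libraries labelled knockout lay below all 3 wild-type libraries, although KO 2 and WT 2 were close to each other. Means were 45.8 ± 17.4 CPM in libraries labelled knockout and 94.1 ± 19.6 CPM in wild-type libraries (SD, n = 3 each). The log2 ratio of -1.04 ± 0.33 (SE) had an unadjusted p of 0.0164 and did not pass after adjustment over all genes (adjusted p = 0.137 by edgeR). Without KO 2 it did pass, at -1.43 with an adjusted p of 0.0371, as 10.4% of all genes then did, and limma-voom with quality weights gave -1.31 with an adjusted p of 0.038, as for 8.27% of all genes. Over the other alternatives the adjusted p of Gbp7 reached 0.399, and its unadjusted p missed 0.05 without KO 1, KO 3, WT 1 or WT 3.

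Gbp5, which promotes assembly of the NLRP3 inflammasome in mouse macrophages, was not low in KO 3, where its neighbours Gbp2, Gbp3 and Gbp7 lay below their wild-type means. The gene (142493978 to 142522344) was at 82.8, 91.4 and 151 CPM in KO 1, KO 2 and KO 3, against 137, 37.1 and 96.5 CPM in WT 1, WT 2 and WT 3. KO 3 was the highest library and WT 2 the lowest, with full overlap of the groups. The log2 ratio of 0.26 ± 0.49 (SE, adjusted p = 0.769 by edgeR) lay within its error, and its sign turned without KO 3 and without WT 2.

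Gbp2b, the gene long called Gbp1 in mice, was the sparsest of the chromosome 3 genes. The gene (142594847 to 142619179) had 15, 119 and 0 reads in KO 1, KO 2 and KO 3, against 173, 53 and 218 reads in WT 1, WT 2 and WT 3, which is 0.741, 6.81 and 0 CPM against 10.3, 3.35 and 12.9 CPM. Of KO 3 it can be said that 0 reads allow up to 0.233 CPM, the level of 3 reads, counting error only. KO 2 lay between WT 2 and WT 1, so the groups overlapped, and the log2 ratio of -1.80 ± 1.34 (SE, adjusted p = 0.439 by edgeR) was uncertain. It was -3.50 with limma-voom, -3.25 with the replicate block and -4.49 without KO 2, and ran from -4.49 to -1.22 with a library left out.

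The chromosome 5 genes, all on the minus strand, also differed among themselves. Gbp8 (105014150 to 105139540), Gbp9 (105077630 to 105139539) and Gbp4 (105115767 to 105139586) overlap in span, and Gbp10 (105215699 to 105239533) and Gbp6 (105270702 to 105293698) lie beyond them. Gbp4, which in mouse cells dampens IRF7-driven interferon production, was at 18.7, 108 and 40.6 CPM in KO 1, KO 2 and KO 3, against 131, 38.0 and 101 CPM in WT 1, WT 2 and WT 3. Its order of libraries was close to that of Gbp2, with KO 1 lowest and WT 2 about level with KO 3, and its log2 ratio was -0.70 ± 0.70 (SE, adjusted p = 0.568 by edgeR), or -1.64 without KO 2 and -0.26 without KO 1. Gbp8 was at 6.52, 30.4 and 1.94 CPM in KO 1, KO 2 and KO 3, against 37.1, 14.6 and 29.1 CPM in WT 1, WT 2 and WT 3. KO 3, with 25 reads, was the lowest library and KO 2 lay among the wild-type values, at a log2 ratio of -1.05 ± 0.90 (SE, adjusted p = 0.503 by edgeR), or -2.71 without KO 2 and -0.54 without KO 3.

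Gbp9, whose product gathers on Toxoplasma vacuoles in mouse cells, was at 26.3, 37.0 and 55.2 CPM in KO 1, KO 2 and KO 3, against 55.9, 23.7 and 51.8 CPM in WT 1, WT 2 and WT 3. The labels had nearly the same range, and the log2 ratio was -0.15 ± 0.41 (SE, adjusted p = 0.847 by edgeR). Gbp6 was at 6.62, 20.1 and 37.4 CPM in KO 1, KO 2 and KO 3, against 22.2, 11.5 and 18.8 CPM in WT 1, WT 2 and WT 3. It was highest in KO 3 and lowest in KO 1, so the wild-type values all lay between libraries labelled knockout, and the log2 ratio was 0.28 ± 0.59 (SE, adjusted p = 0.794 by edgeR). Gbp10 was near the limit of detection, with 1, 24 and 7 reads in KO 1, KO 2 and KO 3, against 44, 4 and 59 reads in WT 1, WT 2 and WT 3. Its log2 ratio of -1.69 ± 1.17 (SE, adjusted p = 0.406 by edgeR) rests on these few reads and was -2.95 without KO 2 and -1.11 without KO 1, and WT 2 lay below KO 2 and KO 3.

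**Figure D2:**
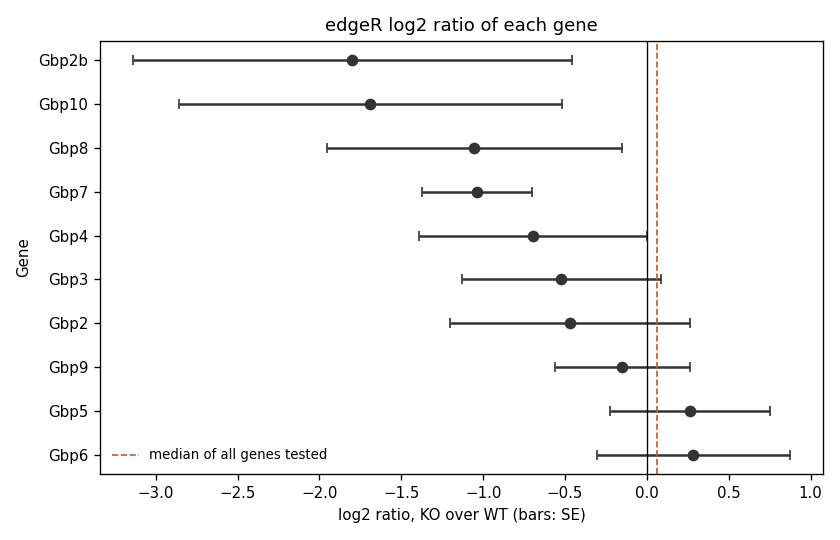
The log2 ratio of libraries labelled knockout over wild-type (horizontal axis) for each of the 10 genes, with SE as bars, and the median of all 16861 genes as a dashed line. The ratios run from -1.80 for Gbp2b to 0.28 for Gbp6, and Gbp7 at -1.04 has the shortest bar.

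Reads of Gbp6 and Gbp10 could not be assigned with certainty. Of all 100-base stretches in their GENCODE M21 transcripts, 64.5% in Gbp6 and 73.5% in Gbp10 also occur in another gene, mostly in each other and in Gm43302, a predicted gene that overlaps both. Exons of Gm43302 cover 29.0% of the exonic bases of Gbp6 and 46.3% of those of Gbp10 on the same strand, yet it was given 1 read in KO 1, 1 in WT 2 and 0 in the other 4 libraries. The sources used here do not say how reads that fit several genes were treated, so the levels of Gbp6 and Gbp10 are uncertain. In Gbp7 the share was 10.01%, in Gbp8 4.39%, in Gbp9 1.65%, in Gbp4 1.64%, in Gbp3 0.694% and in Gbp5 0.142%, while Gbp2 and Gbp2b shared 0 stretches. Gbp4, Gbp8 and Gbp9 also have 60 to 61 exonic bases in common. Most of the shared stretches of Gbp7 occur in Gm43802, a pseudogene that overlaps its exons.

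Levels of different genes were compared only per kilobase of the deposited gene length. By that measure Gbp2 was the most abundant under both labels, at 151 ± 138 CPM per kilobase in libraries labelled knockout and 209 ± 94.98 CPM per kilobase in wild-type libraries (SD, n = 3 each). Gbp3 came next at 32.0 ± 24.5 and 46.0 ± 12.9 CPM per kilobase in the same order of labels, and Gbp10 last at 0.169 ± 0.173 and 0.546 ± 0.431. In wild-type libraries the ranges of Gbp2, Gbp3 and the next gene, Gbp7, did not overlap. From Gbp7 down through Gbp5, Gbp4, Gbp9, Gbp8, Gbp2b and Gbp6, each gene overlapped the next in level. In libraries labelled knockout the order was Gbp2, Gbp3, Gbp5, Gbp7, Gbp9, Gbp4, Gbp8, Gbp6, Gbp2b and Gbp10, and of its neighbours only Gbp5 and Gbp7 did not overlap.

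**Figure D3:**
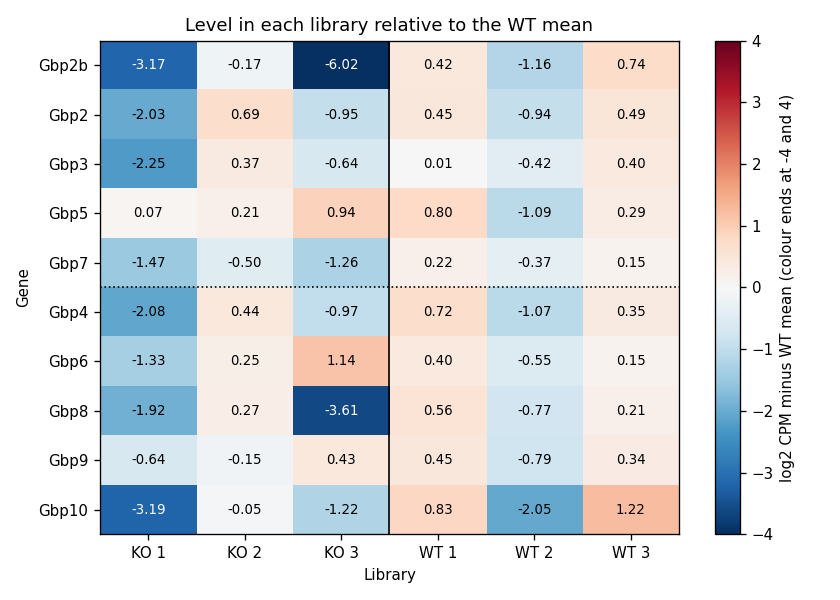
Log2 CPM of each gene (rows, chromosome 3 above the dotted line and chromosome 5 below) minus its wild-type mean, in each library (columns). KO 1 is below the wild-type mean in 9 of 10 genes, KO 2 lies within 0.69 of it in all 10, and KO 3 ranges from -6.02 for Gbp2b to 1.14 for Gbp6.

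The 10 genes ordered the libraries in a common way, with KO 3 the exception. Ranks of the libraries over all genes tested were not counted. Whether the order below is particular to the family was therefore not tested. KO 1 was the lowest library for 6 of 10 genes and among the lowest 2 for 10 of 10. It also had the largest TMM factor of the libraries, which lowers the CPM of every gene in KO 1. As a share of all counts, which does not use that factor, the family sum was still lowest in KO 1. WT 1 was among the highest 2 for 8 of 10 and WT 3 for 5 of 10. WT 2, although a wild-type library, was among the lowest 2 for 5 of 10 and the highest for 0. KO 3 was the highest library for 2 genes, Gbp5 and Gbp6, and the lowest for 2 others, Gbp2b and Gbp8.

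The make-up of the family therefore differed between libraries, a measure in which depth and scaling cancel. Gbp5 made up 25.7% of the reads of the 10 genes in KO 1 (exact binomial 95% interval 24.6 to 26.7%), 6.90% in KO 2 (6.58 to 7.24%) and 22.7% in KO 3 (21.8 to 23.6%). In WT 1 to WT 3 it made up 10.5% (10.1 to 10.9%), 6.63% (6.12 to 7.17%) and 7.52% (7.17 to 7.88%). KO 1 and KO 3 thus stood above all wild-type libraries, while KO 2 lay within their range, and the intervals cover counting error only. Gbp2 made up 36.3%, 58.5% and 37.1% in KO 1 to KO 3, against 50.0%, 44.6% and 52.5% in WT 1 to WT 3. Its share was lowest where that of Gbp5 was highest. Gbp8 made up 0.292% in KO 3 (0.189 to 0.431%) and 2.02 to 2.85% in the other 5 libraries.

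**Figure D4:**
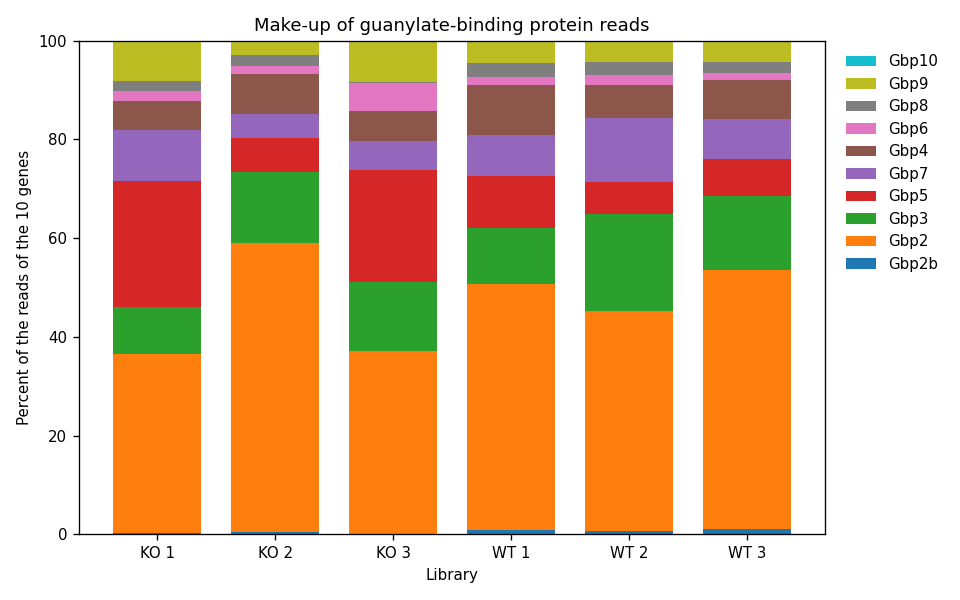
Share of each gene in the reads of the 10 genes (vertical axis, percent of counts) in each library. The Gbp5 band is 25.7% in KO 1 and 22.7% in KO 3, against 6.63 to 10.5% in the wild-type libraries and 6.90% in KO 2.

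Some pairs of genes kept their proportion while others did not. Among the 8 genes with at least 10 reads in every library, giving 28 pairs, the count ratio of Gbp2 to Gbp4 varied least. These genes lie on different chromosomes, and the ratio was 6.25, 7.19 and 6.08 in KO 1 to KO 3, against 4.97, 6.56 and 6.65 in WT 1 to WT 3, with an SD of 0.18 on the log2 scale. The median pair had an SD of 0.91. The ratio of Gbp6 to Gbp8 varied most, at 1.02, 0.661 and 19.2 in KO 1 to KO 3, against 0.599, 0.788 and 0.645 in WT 1 to WT 3. The ratio of Gbp8 to Gbp9, whose annotated spans overlap, ranged from 0.0352 in KO 3 to 0.821 in KO 2, against 0.561 to 0.663 in wild-type libraries.

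The pathway that induces these genes had log2 ratios below 0 in most of its members, and 0 of 10 signalling genes passed after adjustment by edgeR (1 of 10, Ifngr2, by DESeq2, against 10.5% of all genes). Ifng, the ligand, had 2, 9 and 7 reads in KO 1, KO 2 and KO 3, against 21, 14 and 13 reads in WT 1, WT 2 and WT 3. Every library labelled knockout was below every wild-type library, on very few reads, and the log2 ratio was -1.34 ± 0.72 (SE, adjusted p = 0.299 by edgeR). Ifngr2, the signalling chain of the receptor, was at 73.2, 134 and 64.6 CPM in KO 1, KO 2 and KO 3, against 200.1, 228 and 196 CPM in WT 1, WT 2 and WT 3. The groups did not overlap, and KO 2 was the highest library labelled knockout.

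Irf1, a transcription factor gene induced by interferon gamma, was at 88.8, 292 and 91.9 CPM in KO 1, KO 2 and KO 3, against 447, 369 and 414 CPM in WT 1, WT 2 and WT 3, again without overlap. Its log2 ratio was -1.38 ± 0.52 (SE, adjusted p = 0.173 by edgeR), and that of Ifngr2 -1.20 ± 0.35 (adjusted p = 0.12). Irf1 in WT 2 lay nearer to the other wild-type libraries than Gbp2 did. Of the 10 signalling genes, 9 had a negative ratio, against 46.9% of all genes. An unadjusted p under 0.05 was found in 7, all lower, against 12.3% of all genes, and 7 did not overlap, all lower, against 17.3%. Without KO 2, 5 of 10 passed after adjustment, all lower, against 10.4% of all genes in either direction. Here and below, the 10.4% without KO 2 and the 10.5% by DESeq2 count both directions. They are made up of 1353 lower and 460 higher genes without KO 2, and 1250 lower and 779 higher by DESeq2. The adjusted p was then 0.021 for Irf1 and 0.0267 for Ifngr2. Of 10 genes that induce interferon gamma or its producers, 5 were negative, near the 46.9% of all genes. The epithelial cytokine gene Il18 had the smallest p among them, with a log2 ratio of -4.05 ± 0.60 (SE, adjusted p = 0.094 by edgeR). Its groups did not overlap, at 1.87 to 7.89 CPM in libraries labelled knockout against 55.2 to 121 CPM in wild-type libraries. After adjustment 1 of the 10 passed by DESeq2, Il18, against 10.5% of all genes. By edgeR without KO 2 there were 2 of 10, Il18 and Tbx21, both lower, against 10.4%.

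The immunity-related GTPases, which work together with guanylate-binding proteins on vacuoles, had a log2 ratio below 0 in 7 of 7 genes, against 46.9% of all genes. Their median was -1.28. At an unadjusted p under 0.05 there were 5 of 7, all lower, against 12.3% of all genes. After adjustment 0 of 7 passed by edgeR, against 0.0%, 0 by DESeq2, against 10.5%, and 3 by edgeR without KO 2, against 10.4%. Irgm1, a regulator of other such GTPases, was at 40.3, 158 and 65.5 CPM in KO 1, KO 2 and KO 3, against 194, 179 and 268 CPM in WT 1, WT 2 and WT 3. Its groups did not overlap, and its log2 ratio was -1.28 ± 0.52 (SE, adjusted p = 0.19 by edgeR). Among the other large GTPases, 4 of 6 had a ratio below 0, against 46.9% of all genes. Gvin1 was at -1.50 ± 0.78 and Atl1, an atlastin of the endoplasmic reticulum, at 1.03 ± 0.49 (log2 ratio ± SE). At an unadjusted p under 0.05 there were 0 of 6 by edgeR, against 24.1% of all genes in either direction.

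Of 6 inflammasome genes, 5 were negative, against 46.9% of all genes, and 3 had an unadjusted p under 0.05, all lower, against 12.3%. After adjustment 0 passed by edgeR, 2 by DESeq2 (Casp1 and Pycard), against 10.5% of all genes, and 4 by edgeR without KO 2, against 10.4%. Casp1, the protease that matures interleukins, was at 10.9, 39.8 and 14.3 CPM in KO 1, KO 2 and KO 3, against 117, 181 and 135 CPM in WT 1, WT 2 and WT 3, with no overlap. Its log2 ratio was -2.74 ± 0.53 (SE, adjusted p = 0.094 by edgeR), and that of the adaptor gene Pycard was -2.14 ± 0.51 (adjusted p = 0.1). Of 15 other interferon gamma targets, 12 were negative, against 46.9% of all genes, with a median of -1.08. At an unadjusted p under 0.05 there were 3, all lower, against 12.3% of all genes. After adjustment 0 of 15 passed by edgeR, 1 by DESeq2 (Wars), against 10.5%, and 6 without KO 2, against 10.4%. Wars, a tRNA synthetase gene induced by interferon gamma, was at -1.54 ± 0.54 (adjusted p = 0.155 by edgeR) and Nlrc5, the activator of class I antigen presentation, at -0.97 ± 0.35 (adjusted p = 0.161). Of 10 type I interferon response genes, 10 were negative, against 46.9% of all genes, with a median of -1.73, and 4 had an unadjusted p under 0.05, all lower, against 12.3%. After adjustment 0 passed by edgeR, 3 by DESeq2, against 10.5%, and 9 without KO 2, against 10.4%. Cmpk2 at -2.48 ± 0.55 (adjusted p = 0.0975 by edgeR) and Rsad2 at -1.84 ± 0.46 (adjusted p = 0.104) had the smallest p among them. The medians of these lists stand beside 0.06 for all genes tested, and whether they differ from that of the Gbp genes, at -0.61, was not tested.

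Marker levels of other cell types moved with the libraries. On the log2 scale and set against the mean of the wild-type libraries, the median of 8 T and NK cell genes was -1.28, 0.20 and -2.01 in KO 1 to KO 3, against 0.35, -0.57 and 0.16 in WT 1 to WT 3. Their summed level was 34.9 to 89.6 CPM in libraries labelled knockout and 51.3 to 101 CPM in wild-type libraries, and 1 of the 8, Ncr1, was at 0 in KO 1. The median of 8 macrophage and monocyte genes was -0.30, 0.55 and -1.30 in KO 1 to KO 3, against 0.55, -0.50 and -0.04 in WT 1 to WT 3. Both lists were lower in WT 2 than in the other wild-type libraries, as was the median Gbp gene, at -0.86 against 0.45 in WT 1 and 0.34 in WT 3. That was not particular to them. WT 2 was also the lowest wild-type library for neutrophil (-2.70), B and plasma cell (-0.73), endothelial (-0.56) and fibroblast genes (-0.28). It was the highest one for epithelial (0.04), colon (0.48) and smooth muscle genes (0.15). In the same measure the libraries KO 1, KO 2 and KO 3 had -1.98, 0.23 and -0.96 for the median Gbp gene.

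Epithelial genes had a median of -3.87, -1.19 and -8.44 in KO 1 to KO 3, against -0.06 to 0.04 in wild-type libraries. Of the 8 epithelial genes, 8 had a negative ratio, against 46.9% of all genes. At an unadjusted p under 0.05 by edgeR there were 0 of 8, against 24.1% of all genes. The 6 colon markers each had at least 1 read in every library. They summed to 46.6 to 4359 CPM in libraries labelled knockout against 7633 to 10458 CPM in wild-type libraries. In KO 3 they were sparse, with 1 read of Cdx2, 6 of Aqp8, 39 of Muc2, 61 of Slc26a3, 83 of Car1 and 409 of Lgals4. Gbp2b and Gbp8 were lowest in KO 3, the library with the least epithelial RNA, while Gbp5, Gbp6 and Gbp9 were above their wild-type mean there. KO 3 was also the lowest library for the medians of T and NK cell (-2.01), macrophage and monocyte (-1.30) and smooth muscle genes (-1.67). Endothelial markers, 5 of 5 detected in every library, summed to 224 to 987 CPM in libraries labelled knockout and 135 to 266 CPM in wild-type libraries. Fibroblast markers summed to 3219 to 5763 CPM in libraries labelled knockout and 1105 to 1943 CPM in wild-type libraries, without overlap. Their ratio was above 0 in 5 of 5, where 46.9% of all genes were below 0. Neutrophil markers, 6 of 6 detected in every library (Retnlg by 1 read in WT 2), summed to 1201 to 6838 CPM against 10.1 to 432 CPM in the same order of labels. At an unadjusted p under 0.05 by edgeR, 3 of 5 endothelial, 2 of 5 fibroblast and 4 of 6 neutrophil genes were higher, against 11.8% of all genes. Of the colon markers 2 of 6 were lower, against 12.3%. After adjustment by edgeR 0 genes of these lists passed, against 0.0% of all genes. By DESeq2 4 of 6 neutrophil, 2 of 5 fibroblast and 1 of 5 endothelial genes passed, all higher. Of 5 colon genes with an adjusted p 3 passed, all lower, and of 8 epithelial genes 0, against 10.5% of all genes in either direction. Without KO 2 by edgeR, 3 of 6 colon and 2 of 8 epithelial genes passed, all lower. There 1 of 6 neutrophil, 1 of 5 fibroblast and 0 of 5 endothelial genes passed, higher, against 10.4%. The part of any of these cell types in the Gbp levels was not tested.

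**Figure D5:**
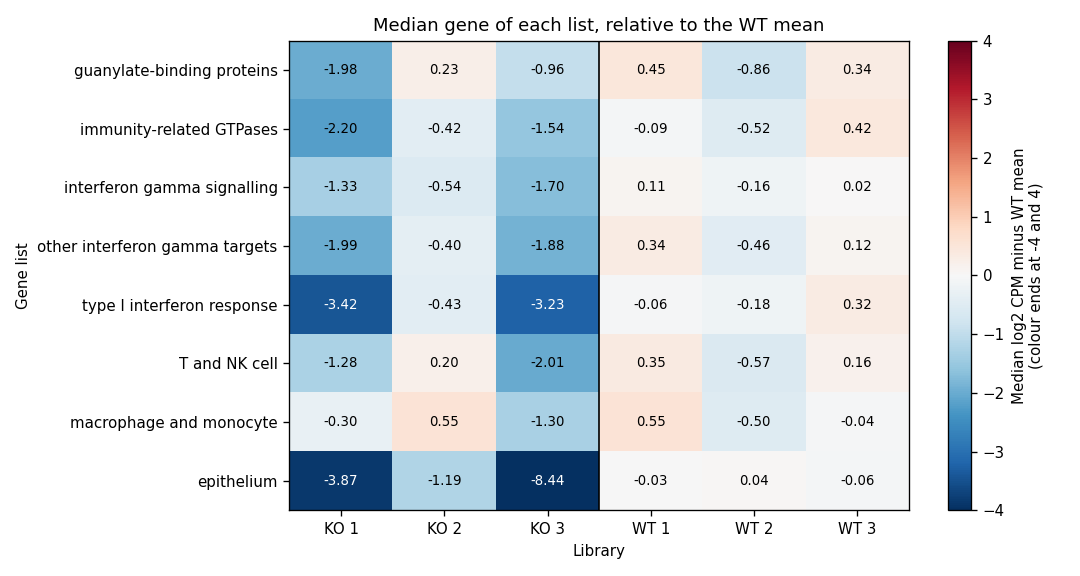
Median gene of chosen lists (rows) as log2 CPM minus the wild-type mean, in each library (columns). Other lists, among them neutrophil, endothelial, fibroblast and colon genes, are not drawn. The row of guanylate-binding proteins is at 0.23 in KO 2 and -0.86 in WT 2, whereas the type I interferon row is at -0.43 in KO 2 and -0.18 in WT 2.

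The genes whose profile over the 6 libraries was most like that of the median Gbp gene were found by the root mean square difference of centred log2 CPM, among 14320 protein-coding genes outside the family with a mean of at least 1 CPM. They were Ube2l6 at 0.23, Gsdma at 0.24, Zfp37 at 0.25, Iigp1 at 0.27, Clec12a at 0.28, Igtp at 0.30, Egln3 at 0.31 and Gpr34 at 0.33. The median of the 14320 genes was 1.03, and a profile that does not vary would be at 0.87. Ube2l6 encodes the conjugating enzyme for ISG15, and Iigp1 and Igtp encode immunity-related GTPases. Ube2l6 was at 22.7, 96.1 and 40.6 CPM in KO 1, KO 2 and KO 3, against 99.3, 59.7 and 96.9 CPM in WT 1, WT 2 and WT 3, with KO 1 lowest and KO 2 among the highest. Of the family itself, from which the median profile was built, Gbp2 at 0.15 and Gbp4 at 0.17 lay closest to it. Gbp2b at 1.85 and Gbp8 at 1.02 lay farthest, and these and Gbp5, at 0.91, were farther from it than a flat profile. With 6 libraries and so many genes compared, such likeness is a description.

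Gbp11, a neighbour on chromosome 5 annotated as a polymorphic pseudogene and not counted among the 10, had 6, 60 and 39 reads in KO 1, KO 2 and KO 3, against 58, 11 and 42 reads in WT 1, WT 2 and WT 3. It too was low in KO 1 and WT 2 and at the wild-type level in KO 2. The pseudogene Gbp2-ps had 0 reads in each of the 6 libraries, which allows up to 3 reads in each.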

How the data were processed

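Poly-A RNA of distal colon was analysed in 6 libraries, 3 labelled Itgbl1 knockout and 3 wild-type, all after DSS. The deposited values are whole-number counts per gene, which the authors made from trimmed reads, per the labels' protocols. The submitters' processing notes list, without roles, DESeq2, featureCounts 1.5.0-p3, HISAT2 2.0.5 and StringTie 1.3.3b, and as builds mm10 and GRCm38. Not given in the sources used here are the strand setting, the annotation release and the handling of reads that fit several genes.

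The test was edgeR 4.0.16 under R 4.3.3. Its filter was filterByExpr (minimum count 10, minimum total 15), its scaling TMM and its comparison of the labels the robust quasi-likelihood test without covariates, adjusted by Benjamini-Hochberg over the 16861 genes kept. Log2 CPM used a prior count of 2, and the SE of a log2 ratio was derived from its F statistic. Alternatives were RLE and upper-quartile scaling, no filter, at least 10 reads in every library, DESeq2 1.42.0, limma-voom 3.58.1 with and without quality weights, the legacy and the non-robust quasi-likelihood fit, a replicate block, each library left out, and KO 3 and WT 2 left out together. For the 10 Gbp genes the legacy fit gave the same values as the main fit, so it is no separate check. The non-robust fit gave the same log2 ratios with other p-values. Shared stretches were counted in GENCODE M21 transcripts, whose 10 Gbp genes have the coordinates of the deposited table, and promoters came from RefSeq.

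The members and gene lists were chosen with earlier results of these data known. The rule named the 10 genes, Itgbl1, up to 4 genes per pathway list by smallest p together with Ifng and Irf1, and the 8 genes with the most similar profile. The ranking of pairs, Gbp11, Gbp2-ps, Gm43302, Gm43802 and the single marker genes named were added after values were seen. Within each label, the libraries of each pair differed beyond sampling noise, with 50.7 to 253 as chi-square over degrees of freedom, and none was treated as a duplicate. A gene withheld from this text is not reported here.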

Additional observations from a re-analysis of the deposited data

How the results depend on the processing

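Of 168 log2 ratios of the 10 genes under 17 alternatives, 156 kept their direction and their side of the adjusted threshold, 2 passed it (Gbp7, -1.31 with quality weights and -1.43 without KO 2) and 10 turned in sign. The 156 include the legacy fit, which gave the values of the main fit, and the non-robust fit, which gave its log2 ratios. For direction these fits are not separate checks. The turned ones were Gbp5 at -0.07 without KO 3, -0.14 without WT 2 and -0.45 without both. Gbp6 turned to -0.073 with limma-voom, -0.67 with quality weights, -0.39 without KO 3 and -0.63 without KO 3 and WT 2. Gbp9 turned to 0.00011 with upper-quartile scaling, 0.075 without KO 1 and 0.04 without WT 1. With a library left out, Gbp5 ranged up to 0.67 (without WT 1), Gbp6 up to 0.71 (without KO 1) and Gbp9 down to -0.48 (without KO 3). Gbp2 ran from -1.57 to -0.02, Gbp2b from -4.49 to -1.22, Gbp3 from -1.31 to -0.07, Gbp4 from -1.64 to -0.26, Gbp7 from -1.43 to -0.84, Gbp8 from -2.71 to -0.54 and Gbp10 from -2.95 to -1.11, each lowest without KO 2. Upper-quartile scaling moved the median of all genes from 0.06 to 0.21, so Gbp9 was lower relative to that median under both. Itgbl1 turned to 0.33 with quality weights, 0.13 without KO 2 and 0.60 without WT 1, with a range of -0.57 to 0.60 over libraries left out.

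Genes past the adjusted threshold, 0 with all libraries, were 192 without a filter, 2029 with DESeq2, 1395 with quality weights, 3 with the replicate block and 0 to 1813 with a library left out, the highest without KO 2. Of the 10 genes, 1 passed with quality weights and 1 without KO 2 (range 0 to 1), both times Gbp7, and 0 with DESeq2. At an unadjusted p under 0.05 there were 2 with limma-voom, 6 with quality weights, 2 without KO 3 and WT 2, and 0 to 5 with a library left out, where Gbp7 missed it without KO 1, KO 3, WT 1 or WT 3. Groups did not overlap in 1 to 5 of the 10 with a library left out, 5 of them without KO 2 and 3 without WT 2, and in 5 without KO 3 and WT 2. The causes of these changes were not tested. Requiring at least 10 reads in every library left Gbp2b, Gbp10 and Itgbl1 without a value.

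The replicate numbers are not said to pair animals, and same-numbered libraries did not deviate together (r = -0.20, 0.09 and -0.08 across genes), so the replicate block, with 3 calls among all genes and 0 among the 10, is given for completeness. Few reads limit Gbp10, Gbp2b, Ifng and Itgbl1, among others.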
